A study of Mus musculus with 5 samples.

Results

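The genes described here run the 3 programmed forms of cell death named apoptosis, necroptosis and pyroptosis. They were taken by name, as 38 mouse genes chosen for their known roles, and all 38 had a row among the 14462 rows of the deposited table. The list holds 6 anti-apoptotic members of the Bcl2 family, 2 pore-forming members, 8 BH3-only or Bnip genes, 6 apoptotic caspase and apoptosome genes, 6 genes of the inhibitor group, 3 death receptor genes and 7 genes of lytic death.

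RNA was measured in CD45+ cells, that is leukocytes, sorted from the lungs of mice carrying MC38/MC38 tumors; MC38 is a mouse colon adenocarcinoma cell line. What the paired name stands for is not spelled out. Of the libraries, 3 carry the treatment label ctrl and 2 the label IR, and the protocol, worded alike for both groups, says that MC38 tumors were irradiated and lungs taken 3 days later. Strain, age, sex and radiation dose were not found in the labels. Nothing there says whether the libraries came from separate mice, so the p-values reflect only how far these samples spread, and that spread may be technical.

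In apoptosis, BH3-only proteins sense damage or lost survival signals and engage the anti-apoptotic Bcl2 proteins, which otherwise hold back Bax and Bak1. Freed Bax and Bak1 open the mitochondrial outer membrane, cytochrome c leaves, and Apaf1 assembles the platform that activates caspase-9 and then the executioner caspases. Death receptors such as Fas reach the same caspases through Fadd and caspase-8, and when caspase-8 is blocked, Ripk1 and Ripk3 can pass the signal to Mlkl, which breaks the plasma membrane. Inflammasomes instead activate caspase-1 or caspase-11 (gene Casp4), which cut gasdermin D so that it forms pores. Short-lived leukocytes such as neutrophils depend on Mcl1 and A1 proteins, and lymphocytes depend strongly on Bcl2 and Mcl1.

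Values are read counts per gene that the authors scaled between libraries, called scaled read counts below, and they correspond to about 8010000 to 10200000 reads per library. Totals of the scaled values were 7232126 to 7425923 in ctrl and 7544034 and 8414753 in IR. IR replicate 2 stood apart from the other 4 libraries on the first principal component, at 131.5 against -51.9 to -6.00, and lead results are also given without it. Ptprc, which encodes CD45, ranged from 15543 to 15842 in ctrl and was 17369 and 27247 in IR (log2 fold change 0.47, limma adjusted p = 0.226). Summed levels of 16 mature neutrophil markers were 43646 to 73884 in ctrl and 100980 and 193998 in the IR libraries, and 6 of the 16 passed the test as higher. For 17 T cell markers the sums were 9426 to 11126 in ctrl and 6604 and 5679 in IR, with 2 lower. For 12 lung epithelial markers, which a CD45 sort should remove, they were 23068 to 27089 in ctrl and 117771 and 57315 in IR, with 2 higher. Scgb1a1 alone made up most of these sums, at 18790 to 23115 in ctrl and 103972 and 50989 in IR. The 2 higher genes were Scgb1a1 and Scgb3a2. Sftpb and Krt18 also lay above ctrl, and Epcam lay below it (133 to 185 in ctrl, 45.8 and 74.8 in IR). The remaining epithelial markers overlapped between the groups. Summed B cell, NK cell and endothelial markers overlapped between the groups in at least 1 library, with 1 of 10, 0 of 9 and 0 of 4 tested genes passing. For 10 monocyte markers the sums were 17610 to 20694 in ctrl and 26530 and 34675 in IR, with 1 higher. That gene, Cd14, was 4132 to 6717 in ctrl and 10186 and 16829 in IR. Fcgr4 and Nr4a1 also lay above ctrl, and the other monocyte markers overlapped. For 12 alveolar macrophage markers the sums were 14409 to 15263 in ctrl and 13837 and 13230 in IR, with 0 passing. Chil3, the largest part of these sums, overlapped between the groups. Ear2, Plet1, Atp6v0d2, Mrc1, Fabp4, Cidec and Krt79 lay below all ctrl libraries in IR, and Siglecf, Marco, Fabp1 and Car4 overlapped. None of the marker genes in the table was at 0 in all 3 ctrl libraries. In bulk RNA, fewer cells of a type and less RNA per cell cannot be told apart, and the part that these shifts had in the values below was not tested.

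None of the 38 genes passed limma's test of IR against ctrl, where 1.50% of the 12777 genes tested did (adjusted p under 0.05; 192 genes, with 1.14% higher and 0.360% lower). All 38 reached 10 scaled reads in 2 or more libraries and were tested. At an unadjusted p under 0.05 there were 8, or 21.1%, against a background of 15.0%. On the higher side these were Mcl1, Bcl2l1, Bcl2a1b, Bid and Bnip3 (5 genes, background 7.76%), and on the lower side Birc6, Birc2 and Apaf1 (3 genes, background 7.20%). The 2 IR values lay beyond all 3 ctrl values for 9 members (23.7%), while 31.5% of all genes were separated so. Of the 9, 5 lay higher (background 15.2%) and 4 lower (background 16.3%). The median log2 fold change was 0.08 over the members and -0.05 over all genes. The members' fold changes ran from -1.03 for Ripk3 to 2.0 for Bnip3, and 25 of 38 were positive (65.8%, against 46.8% of all genes). Scaling to library totals, which shifted the median of all genes by -0.12, left 17 positive (44.7%, against 39.8%). With 1 library left out, the share ran from 52.6% without ctrl replicate 2 (against 45.4%) to 68.4% without IR replicate 2 (against 51.8%). Without IR replicate 1, 4 members passed (10.5%, against 8.13% of all genes): Mcl1, Bcl2l1, Bmf and Apaf1. Without IR replicate 2, 0 passed (background 0.767%).

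**Figure D1:**
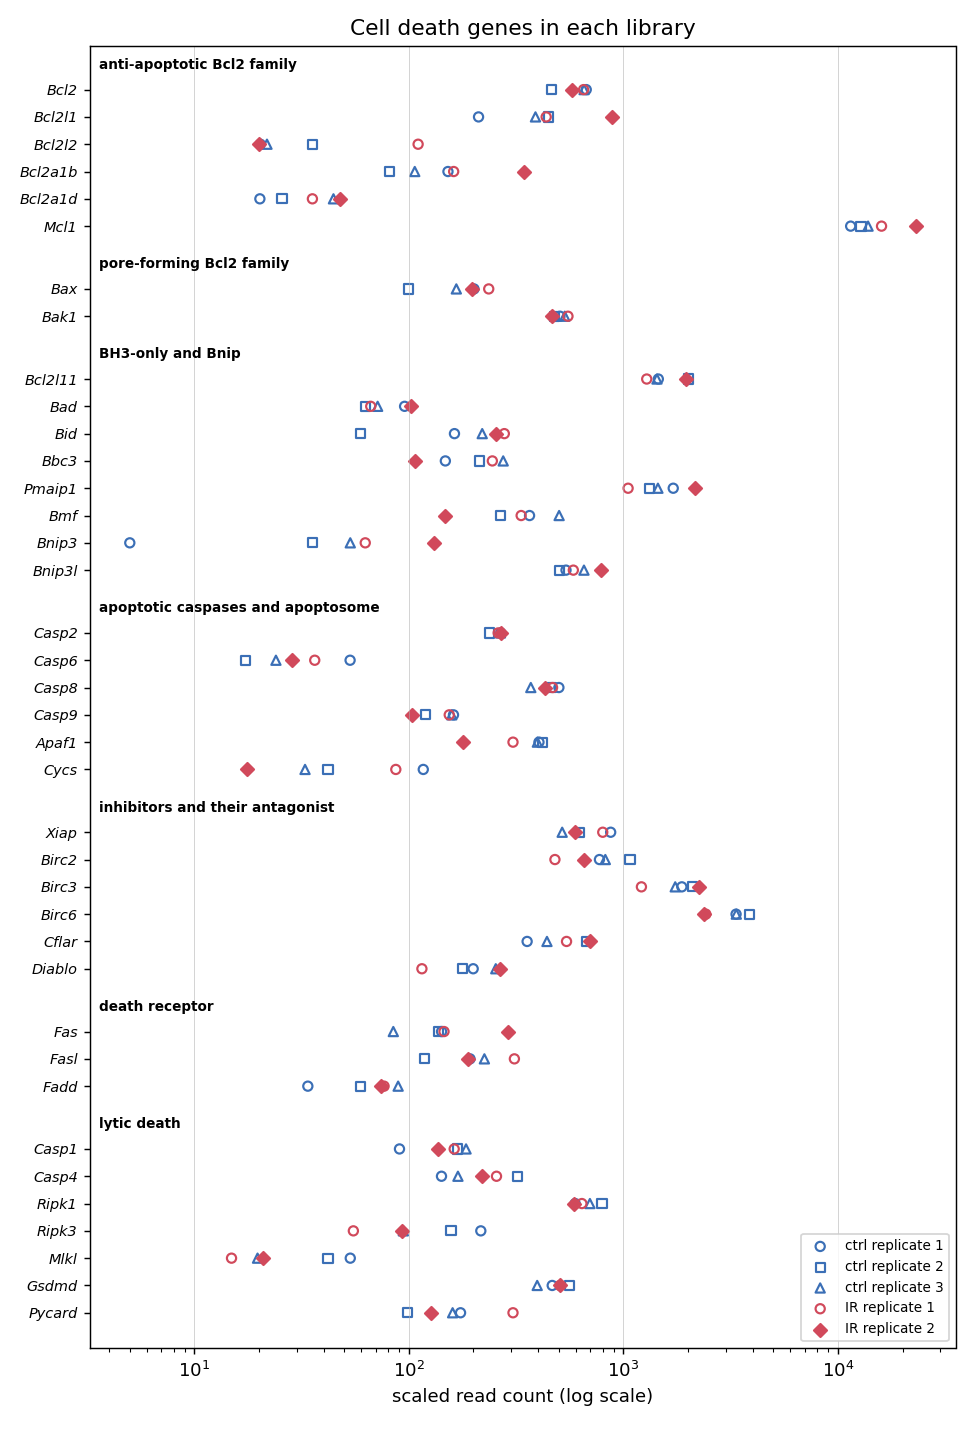
Scaled read counts (log axis) of the 38 cell death genes, with 1 point per library: 3 ctrl libraries in blue and 2 IR libraries in red, grouped by role. Mcl1 lies far to the right of the other genes, at 11464 or more in every library, and for most genes the red and blue points interleave.

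All 6 anti-apoptotic genes had positive fold changes (median log2 0.75), though 5 of 6 did after scaling to library totals or without ctrl replicate 2, and 4 of 6 without IR replicate 1. Mcl1, whose short-lived protein restrains Bak1 and Bax, lies on chromosome 3 (95658788 to 95663176, GRCm38). Its scaled read counts were 11464, 12811 and 13819 in ctrl and 15970 and 23163 in IR. The IR libraries were both above all ctrl libraries. A log2 fold change of 0.60 ± 0.18 (SE), with a 95% confidence interval of 0.22 to 0.98, did not pass (limma adjusted p = 0.104). Mcl1 passed without IR replicate 1, at 0.87 (limma adjusted p = 0.00609), and was 0.33 without IR replicate 2 (adjusted p = 0.564).

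Bcl2l1, which encodes Bcl-xL (chromosome 2, 152780668 to 152831728), ranged from 211 to 448 in ctrl and was 437 and 889 in IR. IR replicate 1 fell within the ctrl range and IR replicate 2 lay above it. The log2 fold change was 0.90 ± 0.35 (SE; interval 0.17 to 1.63; limma adjusted p = 0.223), and it was 1.41 without IR replicate 1 (adjusted p = 0.0284) and 0.39 without IR replicate 2 (0.801). Bcl2, the family's founding member and a survival factor of lymphocytes, had 671, 461 and 656 in ctrl and 652 and 575 in IR. Both IR values lay within the ctrl range, and the log2 fold change of 0.06 (interval -0.48 to 0.60) turned negative after scaling to library totals (-0.06). Bcl2l2, which encodes Bcl-w, was 20.3 to 35.6 in ctrl and 110 and 20.1 in IR. IR replicate 1 lay above the ctrl libraries, and IR replicate 2 was level with ctrl replicate 1, at about 24 reads each. Of its 50-base stretches 12.1% were shared with Gm20521, which overlaps it on the same strand.

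Bcl2a1b and Bcl2a1d encode A1, an anti-apoptotic protein of blood cells whose gene is a target of NF-kB, and they are near-identical copies on chromosome 9 (Bcl2a1b at 89199209 to 89207827 on the plus strand, Bcl2a1d at 88723285 to 88731914 on the minus strand). Another copy in the table, Bcl2a1a (88956900 to 88962419), lies between them. Their first 150 coding bases are shown because they hold some of the bases by which reads could be told apart. Capitals mark bases that differ from Bcl2a1b, and the sequences are from GENCODE transcripts of GRCm38, 5′ to 3′.
Bcl2a1b: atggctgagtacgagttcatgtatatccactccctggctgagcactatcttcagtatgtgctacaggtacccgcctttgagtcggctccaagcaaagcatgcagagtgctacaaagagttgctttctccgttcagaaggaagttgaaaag
Bcl2a1d: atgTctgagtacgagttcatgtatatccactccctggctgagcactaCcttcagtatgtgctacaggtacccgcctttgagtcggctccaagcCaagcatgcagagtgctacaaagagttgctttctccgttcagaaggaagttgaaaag
Bcl2a1a: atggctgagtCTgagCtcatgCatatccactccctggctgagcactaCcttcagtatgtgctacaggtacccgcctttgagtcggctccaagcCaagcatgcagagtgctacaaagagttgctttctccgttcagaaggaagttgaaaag
Over the 516 coding bases, Bcl2a1d differed from Bcl2a1b at 6 and Bcl2a1a at 11, of which 3 and 6 lay in the bases shown. Of all 50-base stretches of the annotated transcripts, 79.2% of those in Bcl2a1b and 79.5% of those in Bcl2a1d also occurred in another gene's transcript. How the authors' counting treated reads that match more than 1 copy was not given in the sources used here, so the split between the copies is uncertain.

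The Bcl2a1b row read 152, 81.3 and 107 in ctrl and 162 and 342 in IR. IR replicate 1 exceeded the highest ctrl value by less than the ctrl libraries differed from each other, and IR replicate 2 lay well above it. The log2 fold change was 1.09 ± 0.46 (SE; interval 0.14 to 2.05; limma adjusted p = 0.265). Bcl2a1d was 20.2 to 44.5 in ctrl and 35.5 and 47.9 in IR. Summing the 3 copies, an alternative chosen after seeing the data, gave 218, 111 and 195 in ctrl and 218 and 446 in IR. In that sum IR replicate 1 no longer lay above ctrl replicate 1, and the log2 fold change was 0.89 ± 0.41 (limma adjusted p = 0.310).

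Divided by exon length, the ctrl levels of this group spanned a wide range. Mcl1 had 3715 ± 346 scaled reads per kb of exon (SD, n = 3), followed by Bcl2a1b with 139 ± 43.9, Bcl2l1 with 76.2 ± 26.9, Bcl2 with 65.1 ± 12.8, Bcl2a1d with 34.9 ± 14.8 and Bcl2l2 with 5.81 ± 1.89. Bcl2l1 and Bcl2 did not differ beyond their spread. Among all 38 members the next highest after Mcl1 was Pmaip1, with 546 ± 72.2 per kb, then Birc3 with 380 ± 35.5.

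The pore-forming genes showed small differences. Bak1, whose protein sits in the mitochondrial membrane, had 506, 476 and 533 in ctrl and 552 and 466 in IR. Its ctrl libraries agreed closely, and the IR libraries fell on either side of them (log2 fold change 0.01, interval -0.54 to 0.55). Bax, a p53 target whose protein moves to mitochondria on activation, had 201, 99.6 and 166 in ctrl and 236 and 198 in IR, with the groups overlapping (log2 fold change 0.53, interval -0.35 to 1.40). Neither passed (limma adjusted p = 0.993 for Bak1 and 0.600 for Bax).

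Among the 8 BH3-only and Bnip genes, 5 fold changes were positive and 3 negative, with none passing, and Pmaip1 turned negative after scaling to library totals. Bcl2l11, which encodes Bim and kills lymphocytes and myeloid cells deprived of growth factors, had 1455, 2007 and 1434 in ctrl and 1284 and 1961 in IR. IR replicate 1 lay below the ctrl libraries and IR replicate 2 within them, for a log2 fold change of -0.02 (interval -0.49 to 0.45). Pmaip1, which encodes Noxa, the partner that removes Mcl1, had 1707, 1320 and 1448 in ctrl and 1052 and 2158 in IR. The 2 IR libraries lay below and above all ctrl libraries, and the log2 fold change was 0.02 (interval -0.50 to 0.55).

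Bid is cut by caspase-8 and carries the death receptor signal to mitochondria (chromosome 6, 120891930 to 120916853). It had 163, 59.4 and 220 in ctrl and 279 and 256 in IR. Its IR libraries were close to each other and above ctrl, and ctrl replicate 2 was the lowest by far. The fold change was 1.04 ± 0.48 on the log2 scale (SE; interval 0.06 to 2.03; limma adjusted p = 0.308), and 0.49 without ctrl replicate 2. Exons of Bid overlap those of Bcl2l13, another Bcl2 family gene, on the opposite strand. Bcl2l13 was 232 to 388 in ctrl and 416 and 146 in IR, above ctrl in IR replicate 1 and below it in IR replicate 2. Whether the 2 genes shared reads was not tested.

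Bnip3 had the largest fold change of the list. It encodes a mitochondrial BH3-like protein that marks mitochondria for autophagy and is a textbook target of hypoxia-inducible factors (chromosome 7, 138890836 to 138909519). The values were 5.0, 35.6 and 53.3 in ctrl and 62.6 and 130 in IR. The IR libraries lay above ctrl, yet ctrl replicate 1 rests on about 6 reads, and IR replicate 1 exceeded ctrl replicate 3 by little. With a log2 fold change of 2.0 ± 0.94, Bnip3 did not pass (SE; interval 0.07 to 3.93; limma adjusted p = 0.316). Without ctrl replicate 1 the value was 1.04, a move of over 1.5 times. Of the 50-base stretches of its transcripts 16.5% occurred in other genes, most of them in Gm16439. The related Bnip3l was 503 to 655 in ctrl and 584 and 783 in IR (log2 fold change 0.27, limma adjusted p = 0.674).

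The 250 bases before the RefSeq start of Bnip3 (GRCm38.p6, chr7:138909507-138909756, minus strand, printed 5′ to 3′) are shown because they hold the core letters of the hypoxia response element, ACGTG, searched on both strands and set in capitals. The run CACGTG is its own reverse complement, so it holds a match on each strand at overlapping bases.
Bnip3: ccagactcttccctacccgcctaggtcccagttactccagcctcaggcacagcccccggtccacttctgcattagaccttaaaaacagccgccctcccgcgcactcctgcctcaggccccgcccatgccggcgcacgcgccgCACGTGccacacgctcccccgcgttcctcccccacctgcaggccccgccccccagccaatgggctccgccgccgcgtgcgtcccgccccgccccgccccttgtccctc
Of 35 members with such a window, 11 held ACGTG (31.4%), against 18.5% of 27025 genes with a window of that length. The other 10 were Apaf1, Bax, Bbc3, Casp1, Casp6, Cycs, Fadd, Fas, Ripk3 and Xiap. Bnip3, Bax and Fas among the 11 had positive fold changes above 0.5, while Apaf1 and Ripk3 had negative ones below -0.5. A match of letters is a description and not a binding site.

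For the remaining BH3-only genes, the IR libraries lay on either side of the log2 ctrl mean for Bbc3 and Bad, and both below it for Bmf. Bmf, which is released when cells detach or the cytoskeleton is disturbed, was 268 to 502 in ctrl and 334 and 147 in IR. IR replicate 1 lay within the ctrl range and IR replicate 2 below it (log2 fold change -0.72, interval -1.49 to 0.05; limma adjusted p = 0.366). The value was -1.31 without IR replicate 1 (limma adjusted p = 0.0491) and -0.13 without IR replicate 2 (0.932). Bbc3, which encodes the p53-induced Puma, was 148 to 275 in ctrl and 245 and 107 in IR (log2 fold change -0.34). Bad, which growth factor signalling holds inactive by phosphorylation, was 63.0 to 95.5 in ctrl and 66.4 and 103 in IR (0.13).

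Of the caspase and apoptosome genes, Apaf1 stood out by the agreement of its ctrl libraries. Apaf1, the scaffold that binds cytochrome c and caspase-9 (chromosome 10, 90989311 to 91082770), had 404, 420 and 397 in ctrl and 306 and 178 in IR. In IR both libraries lay below ctrl, IR replicate 2 by more. Apaf1 had a log2 fold change of -0.80 ± 0.32 (SE; interval -1.46 to -0.13; limma adjusted p = 0.234), and it was -1.19 without IR replicate 1 (adjusted p = 0.0403) and -0.41 without IR replicate 2 (0.757).

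Casp8, the initiator caspase of death receptors and a brake on necroptosis, had 500, 460 and 370 in ctrl and 467 and 432 in IR. Both IR values lay within the ctrl range (log2 fold change 0.03, interval -0.55 to 0.61). Casp2, an initiator linked to DNA damage and chromosome errors, was 238 to 268 in ctrl and 261 and 270 in IR, close to ctrl (0.04, with an interval of -0.65 to 0.74). Casp9 was 120 to 161 in ctrl and 154 and 103 in IR (-0.20). Casp6, an executioner caspase, was low, at 17.3 to 53.2 in ctrl and 36.4 and 28.5 in IR. Cycs, which encodes cytochrome c, ranged from 17.6 to 117 over the 5 libraries, and 25.9% of its 50-base stretches also occurred in other annotated genes, 43 in number, so its row is uncertain.

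The inhibitor group held 2 of the 4 members whose IR values lay below ctrl, where 16.3% of all genes lay so. None of its 6 genes passed. Birc6, a very large protein that inhibits caspases and attaches ubiquitin (chromosome 17, 74528295 to 74703356), had 3351, 3864 and 3360 in ctrl and 2422 and 2376 in IR. Both IR libraries lay below every ctrl library and close to each other. The log2 fold change was -0.55 ± 0.19 (SE; interval -0.94 to -0.16; limma adjusted p = 0.156). It stayed between -0.59 and -0.48 as each library was left out, and the adjusted p over all settings ran from 0.0512 to 0.384.

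Birc2 encodes cIAP1, a ubiquitin ligase that steers TNF receptor signalling to survival (chromosome 9, 7818227 to 7837064). It had 773, 1073 and 824 in ctrl and 480 and 655 in IR. Both were below ctrl in IR (log2 fold change -0.65 ± 0.25 SE; interval -1.16 to -0.14; limma adjusted p = 0.207). Birc3, which encodes the related cIAP2 and is a target of NF-kB, lies 11.6 kb away on the same strand, measured between the nearest ends of the genes. Its values were 1872, 2096 and 1744 in ctrl and 1213 and 2259 in IR. The 2 IR libraries lay below and above all ctrl libraries (log2 fold change -0.20, interval -0.68 to 0.28), so the neighbours were both below ctrl in IR replicate 1 only.

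Xiap, the direct inhibitor of caspase-9 and the executioners, was 518 to 872 in ctrl and 801 and 598 in IR (log2 fold change 0.08). Cflar, which encodes the caspase-8 decoy c-FLIP, was 356 to 671 in ctrl and 543 and 697 in IR (0.38, interval -0.21 to 0.98). Diablo, whose protein leaves mitochondria to unblock caspases, was 177 to 254 in ctrl and 115 and 266 in IR (-0.25). For Diablo, 17.6% of 50-base stretches were shared with Gm49027, which overlaps it on the same strand.

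**Figure D2:**
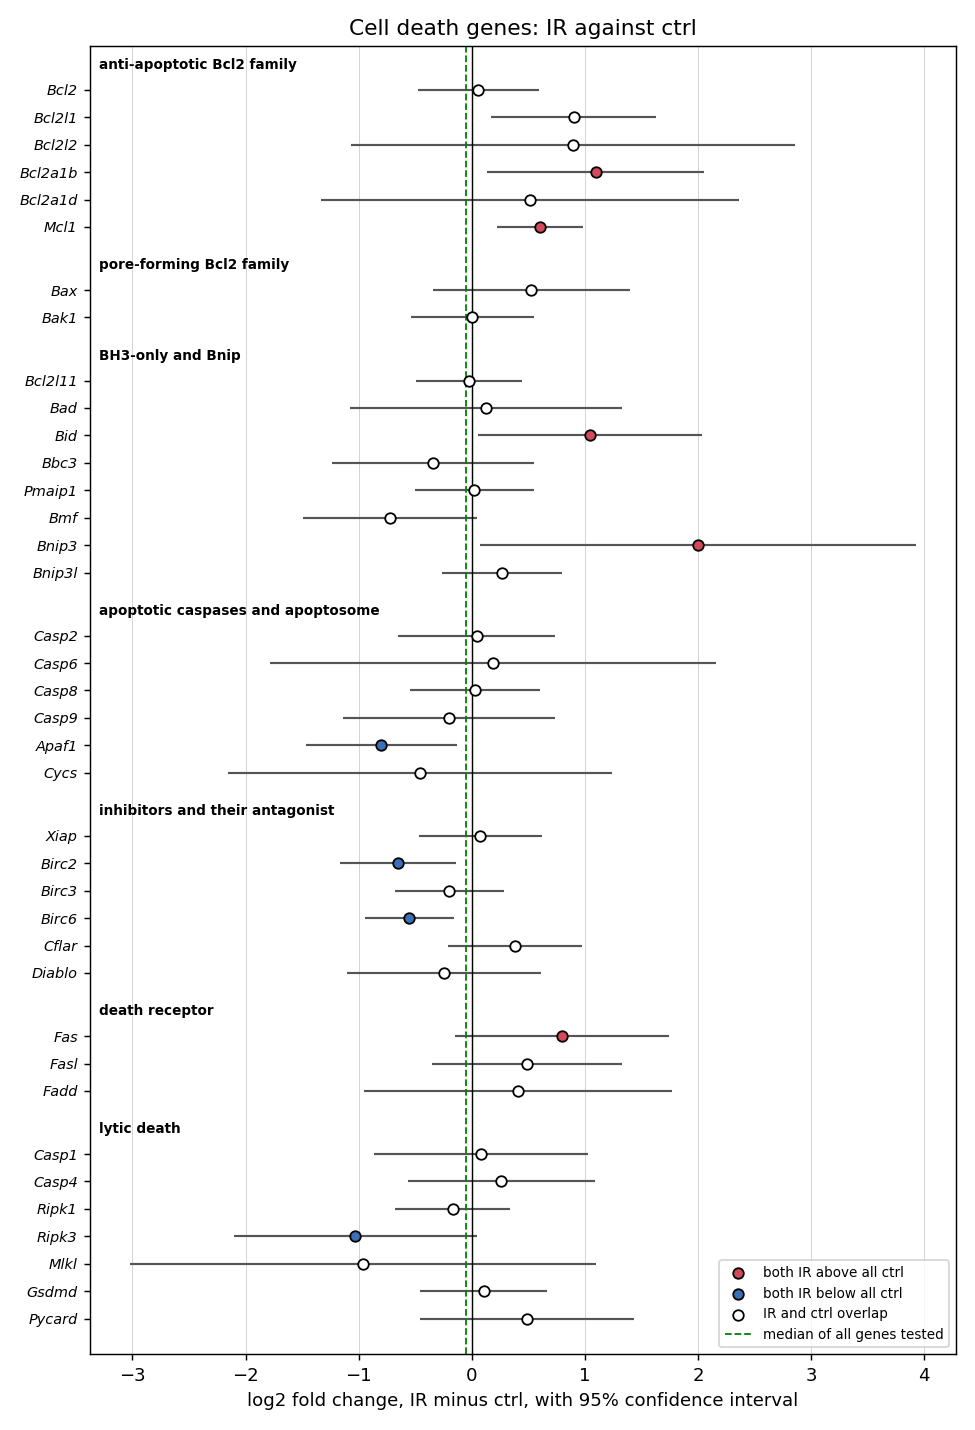
Log2 fold change of IR against ctrl for each gene (points) with its 95% confidence interval from limma (lines), filled red or blue where both IR libraries lay above or below all ctrl libraries; the dashed line is the median of all genes tested, -0.05. The intervals of 8 genes exclude 0 before adjustment, and they are widest for genes with low counts such as Mlkl and Bnip3.

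All 3 death receptor genes had positive fold changes, also after scaling to library totals, and none passed. Fas, the receptor, is a target of p53 and of NF-kB (chromosome 19, 34290666 to 34327772). It had 142, 137 and 84.6 in ctrl and 146 and 291 in IR. IR replicate 1 was almost level with 2 of the ctrl libraries and IR replicate 2 lay above all of them (log2 fold change 0.80 ± 0.46 SE; interval -0.15 to 1.75; limma adjusted p = 0.427). Fasl, the ligand carried by T and NK cells, had 193, 118 and 225 in ctrl and 310 and 189 in IR. Here IR replicate 1 was the higher library, and the groups overlapped (0.49, interval -0.35 to 1.33). Fadd, the adaptor that joins Fas to caspase-8, was 33.8 to 89.1 in ctrl and 76.6 and 74.0 in IR (0.41).

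Of the lytic death genes 4 had positive and 3 negative fold changes, with none passing and 0 inside every interval. Casp1 and Gsdmd of the 4 turned negative after scaling to library totals. The 3 negative ones were the necroptosis genes. Ripk3, the kinase that phosphorylates Mlkl (chromosome 14, 55784995 to 55788865), had 216, 157 and 94.2 in ctrl and 55.1 and 93.3 in IR. Its IR libraries were the lowest, but IR replicate 2 was level with ctrl replicate 3 (log2 fold change -1.03 ± 0.52 SE; interval -2.10 to 0.05; limma adjusted p = 0.354). Mlkl was 19.7 to 53.3 in ctrl and 14.9 and 21.0 in IR, which corresponds to about 16 reads in the lowest library, and its log2 fold change of -0.96 had an interval of -3.02 to 1.10. Ripk1, the kinase upstream of both survival and death, had 596, 795 and 698 in ctrl and 640 and 590 in IR, with IR replicate 1 inside the ctrl range (-0.17, interval -0.68 to 0.34).

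None of the 4 pyroptosis genes passed. Gsdmd, the pore-forming substrate, had 466, 563 and 396 in ctrl and 507 and 506 in IR. Both IR values lay inside the ctrl range (log2 fold change 0.11, interval -0.46 to 0.67). Casp1, the inflammasome caspase that also matures interleukin-1 beta, was 90.4 to 185 in ctrl and 163 and 137 in IR (0.08). Casp4, whose protein senses bacterial lipopolysaccharide inside cells and whose gene starts 1.56 kb after Casp1, was 142 to 322 in ctrl and 256 and 220 in IR (0.26). Pycard, the adaptor that forms inflammasome specks, was 98.6 to 174 in ctrl and 306 and 127 in IR (0.49, interval -0.46 to 1.44), so its 2 IR libraries disagreed.

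The IR libraries disagreed in direction for many members. For 15 of 38 (39.5%) 1 IR library lay above the ctrl mean and the other below it on the log2 scale, as did 36.5% of all genes tested. Of the others, 16 were above in both and 7 below in both. The median absolute log2 difference between the 2 IR libraries was 0.50 over the members and 0.60 over all genes, while pairs of ctrl libraries differed by 0.29 to 0.47 over the members. By more than 1 log2 unit the IR libraries differed for 10 members, which were Bcl2l1, Bcl2l2, Bcl2a1b, Bbc3, Pmaip1, Bmf, Bnip3, Cycs, Diablo and Pycard. Bcl2l1, Bcl2a1b, Pmaip1, Bnip3 and Diablo of these were higher in IR replicate 2 and the other 5 in IR replicate 1. Without IR replicate 2 the log2 fold change was 0.33 for Mcl1, 0.39 for Bcl2l1, -0.41 for Apaf1, 0.56 for Bcl2a1b, 1.48 for Bnip3, 1.11 for Bid and 0.30 for Fas, and it was -0.88 for Birc2, -0.54 for Birc6 and -1.40 for Ripk3. Mcl1, Bcl2l1, Apaf1, Bcl2a1b and Fas thus moved by over 1.5 times, while Bid and Birc6 were within 0.1 of their values with all libraries. The standard error of the fold change ran from 0.18 for Mcl1 to 1.0 for Mlkl, with a median of 0.40, against 0.48 over all genes.

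**Figure D3:**
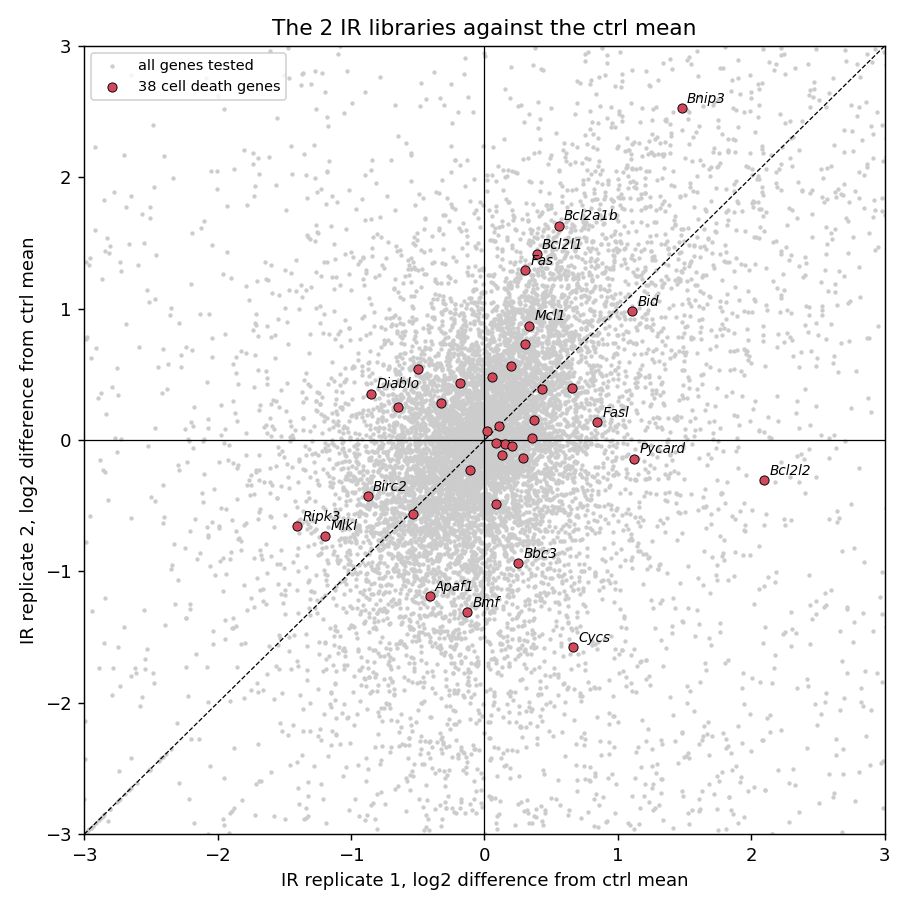
Each point is a gene, placed by its log2 difference from the ctrl mean in IR replicate 1 (horizontal axis) and IR replicate 2 (vertical axis); grey points are all genes tested, of which 1265 lie outside the axes, red points are the 38 members, and the dashed line marks equal differences. Bid lies near the line, Bcl2l1, Bcl2a1b and Mcl1 lie above it, and Bcl2l2, Pycard and Cycs lie in the quadrant where the IR libraries had opposite signs.

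Genes of the same pathways outside the list gave a like picture. Of 53 such genes 45 were in the table and 44 were tested; 0 passed limma's test (background 1.50%), 7 of the 44 had an unadjusted p under 0.05 (background 15.0%), and the median log2 fold change was 0.10. Among 13 genes of death receptor signalling, the cytokine Tnf had 1296, 1321 and 1356 in ctrl and 1753 and 4061 in IR. Both IR libraries lay above 3 closely agreeing ctrl libraries (log2 fold change 1.01, interval 0.44 to 1.58; limma adjusted p = 0.0716). Tnf passed after scaling to library totals, with a pseudocount of 10 and without IR replicate 1. Its receptor Tnfrsf1a had a log2 fold change of 0.62 and the adaptor Traf1 of 0.51, while Tnfrsf10b, a death receptor, had -0.61.

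Of 15 inflammasome and lytic death genes tested, 0 passed. Il1b, the cytokine that caspase-1 matures, had a log2 fold change of 1.40 (interval -0.08 to 2.88), and Gsdme, another gasdermin, of 1.13 (0.01 to 2.25). Il18, the other cytokine that caspase-1 matures, had -1.19 (-2.14 to -0.23), and the mitochondrial phosphatase Pgam5 had -1.65 (-3.01 to -0.30). The limma adjusted p was 0.352 for Il1b, 0.329 for Gsdme, 0.217 for Il18 and 0.226 for Pgam5. Without IR replicate 1, 6 of the wider genes passed (background 8.13%): Tnf, Nlrp3, Il1b, Il18, Il1a and Pgam5.

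Of 7 further caspase and nuclease genes tested, the largest differences were those of Htra2, a protease released from mitochondria (log2 fold change -1.46), Dffb, the nuclease that cuts DNA in dying cells (-1.43), Endog, a mitochondrial nuclease (-1.18), and Dffa, the inhibitor of Dffb (-0.62). In the IR libraries Endog was 61.7 in replicate 1 and was listed at 0 in replicate 2. Of 5 further genes tested that were listed with the inhibitors, Birc5, Naip5 and Usp11 had -1.95, -0.72 and -0.65 and Naip2 had 0.38. The interval of Htra2 was -2.85 to -0.08 (limma adjusted p = 0.308), and the intervals of all the others named here included 0. Htra2 was 79.5 to 102 in ctrl and 37.4 and 25.2 in IR. Dffb was 59.9 to 62.5 in ctrl and 26.2 and 18.5 in IR (limma adjusted p = 0.408). Birc5 was low, at 5.8 to 28.3 in ctrl and 0 and 15.1 in IR (interval -5.48 to 1.58, limma adjusted p = 0.639). Among 4 further Bcl2 family genes tested, Bcl2l14 had 2.36, Bcl2a1a 0.63, Bcl2l13 -0.33 and Bcl2l12 -1.46, and the interval of each included 0.

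Since Bax, Bbc3, Pmaip1 and Fas are targets of p53, the classical responder to irradiation, 12 other genes of that response were examined. Of the 11 tested 0 passed (background 1.50%), 2 had an unadjusted p under 0.05 (background 15.0%), and the median log2 fold change was 0.11. Both IR libraries lay above all ctrl libraries for 4 of the 11 (background 15.2%) and below them for 0 (background 16.3%). These 4 were Zmat3, Ccng1, Sesn2 and Cdkn1a, with log2 fold changes of 1.18, 0.60, 0.60 and 0.37. Cdkn1a was 1443 to 1538 in ctrl and 1865 and 2024 in IR. Of the 11 fold changes 4 were negative, among them -0.61 for Tnfrsf10b, which is on both lists, -0.18 for Mdm2 and -0.05 for Trp53inp1. The 4 members had 0.53 for Bax, -0.34 for Bbc3, 0.02 for Pmaip1 and 0.80 for Fas.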

How the data were processed

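Sorted CD45+ lung cells gave RNA-seq libraries by a low-input, strand-keeping protocol, per the labels' protocols. Per the submitters' processing notes, HISAT2, HTSeq and mm10 were used; their versions and roles, the annotation, the strand setting and the scaling were not given in the sources used here. Each value of the deposited table was a scaled signal per gene, made by the authors from read counts, with 1 decimal. Between 97.8% and 99.8% of values per library lay within 0.11 of a whole multiple of 1 step (0.730 to 0.935), where evenly spread values would give 23.5% to 30.1%; dividing by the step gave approximate reads, used only to describe depth. Only whole-table tests on the log scale were run. No interval covers counting error alone.

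Libraries were grouped by the treatment label, with replicate numbers in accession order. Genes with at least 10 in at least 2 libraries were fitted as log2(value + 1) with limma 3.58.1 (R 4.3.3, statmod 1.5.0; mean trend, robust), with Benjamini-Hochberg adjustment over all 12777 genes and calls under 0.05; tests were two-sided. Fold changes are on that scale, which understates low genes. Intervals are unadjusted. The smallest p an exact permutation of 2 against 3 can give is 0.1, so none was used. The procedure was tested on simulated data. The members, lists and rules were chosen with earlier results of these data known. Named with a value in every library were members called, members whose groups did not overlap, and the 2 highest per role. Other members are given by range, and from other lists up to 4 genes with the largest fold changes. Of the p53 list Cdkn1a, Mdm2 and Trp53inp1 were added, and marker genes were named where they carried a sum or differed from it. Gene positions, exon lengths and shared 50-base stretches (same strand, all annotated transcripts) came from the GENCODE annotation of GRCm38 (vM21; mm10 is the same assembly), where all 38 members were found. Exons of 11 members overlap a gene on the opposite strand and those of 5 a gene on the same strand; reads there may be shared. Alternatives covered scaling, the filter, the pseudocount, robust estimation and each library left out.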

Additional observations from a re-analysis of the deposited data

How the results depend on the processing

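No paired analysis was possible because the labels carry no replicate numbers shared between the groups. The count of members that passed was 0 in all settings run with 5 libraries, and 0 to 4 with 1 library left out, with 4 without IR replicate 1. The count over all genes was 192, 129 to 259 with other scalings, filters and robust estimation off, 314 with a pseudocount of 10, and 19 to 1006 with 1 library left out; the share of calls that were higher went from 76.0% to 55.2% after scaling to library totals. The members' median log2 fold change was 0.079, -0.042 after scaling to library totals, and 0.052 to 0.18 with 1 library left out. The count of wider genes was 0, 1 after scaling to library totals, 1 with a pseudocount of 10, and 0 to 6 with 1 library left out. The cause of these shifts was not tested. The sign held in every setting for 20 members, and 18 that did not pass changed sign in at least 1. After scaling to library totals these were Bak1 (-0.11), Bcl2 (-0.061), Casp1 (-0.040), Casp2 (-0.076), Casp8 (-0.090), Gsdmd (-0.014), Pmaip1 (-0.10) and Xiap (-0.044), and with median-ratio factors Bcl2l11 (0.00055). With 1 library left out the log2 fold changes ran from -0.18 to 0.44 for Bad, -0.12 to 0.13 for Bak1, -0.94 to 0.25 for Bbc3, -0.11 to 0.15 for Bcl2, -0.33 to 0.28 for Bcl2l11, -0.31 to 2.09 for Bcl2l2, -0.65 to 0.25 for Birc3, -0.24 to 0.27 for Casp1, -0.012 to 0.074 for Casp2, -0.15 to 0.63 for Casp6, -0.093 to 0.12 for Casp8, -0.49 to 0.086 for Casp9, -1.58 to 0.66 for Cycs, -0.85 to 0.35 for Diablo, -0.016 to 0.24 for Gsdmd, -0.50 to 0.54 for Pmaip1, -0.14 to 1.12 for Pycard and -0.13 to 0.29 for Xiap. Where an IR library was left out, the lone IR library was assumed to vary like ctrl. The 2 IR and 3 ctrl libraries limit precision, and genes near the lowest levels, such as Mlkl and Bnip3, rest on as few as 16 and 6 reads in a library.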
